A study of Mus musculus with 30 samples.

Results

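CD11c+ cells of primed mice that received abatacept were compared with CD11c+ cells of unimmunised mice. The 6 arrays of these groups, 3 for each, are part of 30 arrays in the series and of 15 arrays of CD11c+ cells, and they were chosen by their sample titles. For each of 17097 genes with a single symbol the brightest probe set, by its mean across the 30 arrays, was taken. Tested were the 10203 genes that exceeded the array median in 3 or more of the 15 CD11c+ arrays. The question was which differences between primed and unimmunised mice were still present when costimulation had been blocked.

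All mice were DO11.10 RAG2-/- animals on the BALB/c background, 8 to 10 weeks old. DO11.10 mice carry a transgenic T cell receptor for an ovalbumin (OVA) peptide, and without RAG2 no other antigen receptor can be rearranged, so these mice have T cells of 1 specificity and no mature B cells in every group. Unimmunised mice received no antigen. The abatacept group was immunised subcutaneously with OVA (100 micrograms per mouse) emulsified in complete Freund's adjuvant (CFA), an oil with killed mycobacteria, and was given abatacept at 10 mg/kg. A further pair of groups with 3 arrays each served as references, mice primed in the same way without a protein drug and primed mice given control IgG at 10 mg/kg. Orally tolerised mice, with 3 arrays, were not compared. Their arrays entered the shared estimate of the spread, the choice of probe sets, the filter on dim genes, the principal components and the label checks. CD11c+ cells were isolated from pooled lymph nodes and spleen with CD11c microbeads in every group. The design gives 10 days after immunisation for the CD4+ T cells of the same study and no separate day for the CD11c+ cells. The labels do not tell whether replicates are different animals. The p-values therefore reflect the spread among the samples at hand, which may be technical, and 3 arrays a group limit the precision. When abatacept was given in relation to priming is not stated in the sources used here. A difference between the abatacept and the unimmunised group therefore holds the antigen, the adjuvant and the drug together.

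Dendritic cells take up antigen, mature on sensing microbial products such as those in CFA, and present peptide on MHC class II together with the costimulatory ligands CD80 and CD86. T cells read CD80 and CD86 through CD28, and activated T cells in turn act back on dendritic cells through CD40 ligand and cytokines. Abatacept joins the extracellular domain of CTLA-4 to an antibody Fc region, and by binding CD80 and CD86 it withholds the CD28 signal. The CD11c+ fraction of lymphoid organs holds conventional dendritic cells of the XCR1 and the CD11b type, plasmacytoid dendritic cells, and other cells that carry some CD11c, such as monocytes, macrophages, natural killer cells and activated T cells.

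The labels were checked first. Itgax, which encodes CD11c, lay between 9.56 and 10.29 on the log2 scale in the 15 CD11c+ arrays and between 3.30 and 7.04 in the 15 arrays of CD4+ T cells, and Flt3, a dendritic cell growth factor receptor, lay between 6.67 and 8.46 against 2.70 and 5.18. Cd3e of the T cell receptor complex was not absent, at 6.82 to 8.78 in CD11c+ arrays against 10.69 to 11.65 in CD4+ arrays. Across all probe sets, arrays of a CD11c+ group correlated between 0.990 and 0.995. On the leading principal component, with 56.1% of the variance of the CD11c+ arrays, the unimmunised arrays had scores of -35.5, -38.1 and -27.9, the abatacept arrays -24.9, -23.6 and -19.0, and the primed arrays 16.1, 15.5 and 21.8. Control IgG arrays had scores of 11.2, -3.7 and 16.8. The 3 abatacept arrays thus lay beside the unimmunised arrays and apart from the primed and control IgG ones, without overlapping any. Of the primed and control IgG arrays, control IgG replicate 2 lay nearest to the abatacept arrays. The part in this component of the sex-linked transcripts described below was not tested.

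Several transcripts that are not of CD11c+ cells or that mark the sex of the mice moved with arrays or groups. Amy1, a salivary amylase, stood at 4.26, 12.15 and 2.31 in unimmunised arrays 1, 2 and 3, at 2.63, 2.79 and 7.69 in abatacept arrays and at 5.23, 11.43 and 11.31 in control IgG arrays. Unimmunised replicate 2 and abatacept replicate 3 were therefore the arrays with salivary transcripts in the comparison, and both were left out together as an alternative. Xist, expressed from an inactive X chromosome, was between 11.37 and 11.52 in unimmunised and between 11.08 and 11.27 in abatacept arrays, and the Y-linked Eif2s3y was between 2.46 and 2.69 and between 2.37 and 2.72. These transcripts matched between the abatacept and unimmunised groups. They did not match the references, since Eif2s3y was 8.53 to 8.64 in primed arrays and 8.76, 5.92 and 8.20 in control IgG arrays. Every primed and control IgG array was above every unimmunised and abatacept array for Eif2s3y. In comparisons across these groups the part of this cannot be told apart from that of the treatment, and it was not tested.

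A total of 239 of 10203 genes (2.34%) were called between abatacept-treated and unimmunised mice, at a Benjamini-Hochberg adjusted p under 0.05 in limma fitted over all 15 CD11c+ arrays. Of these, 214 were higher under abatacept (2.10% of genes tested) and 25 were lower (0.245%). The rises had a median of 0.63 on the log2 scale and ran from 0.29 to 2.22, the falls a median of -0.54 and ran from -0.36 to -1.66, and 32 genes (0.314%) also passed 2-fold, 31 of them upward and Car3 downward. The arrays of all 239 genes did not overlap between the groups, as was the case for 2245 genes (22.0%) in all. At an unadjusted p under 0.05 the count was 1852.

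The same fit called 3509 genes (34.4%) between control IgG and unimmunised mice and 3941 (38.6%) between primed and unimmunised mice. It called 1560 (15.3%) between abatacept and control IgG and 2615 (25.6%) between abatacept and primed mice. All comparisons with unimmunised mice share the unimmunised arrays, and each comparison with abatacept shares the abatacept arrays, so their values are set side by side below and are not independent of each other. Control IgG against unimmunised split into 2441 higher and 1068 lower genes, and into 1898 and 1423 after renewed quantile normalisation of the arrays. For primed against unimmunised the split was 2598 and 1343, and 2098 and 1759 after it, so directions over all genes in these references depend on the scaling. The median difference over all genes tested was 0.07 for abatacept, 0.09 for control IgG and 0.09 for primed, each minus unimmunised.

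The number of calls depended on single arrays. Without abatacept replicate 1, 2 or 3 the count was 128, 54 or 72, and without unimmunised replicate 1, 2 or 3 it was 166, 84 or 279. With unimmunised replicate 2 and abatacept replicate 3 left out together, 29 genes were called, 27 of them among the 239. Single arrays thus decide many of the calls. Of the called genes named by rule, Igkj1, D13Ertd608e, Fcrla, Klk1b27, Pacsin1, Havcr1, Ly6c1, Spib, Xcr1, Upb1, Ldhb and Ccr9, 12 in all, stayed called with both of these arrays left out, and 46 did not.

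**Figure D1:**
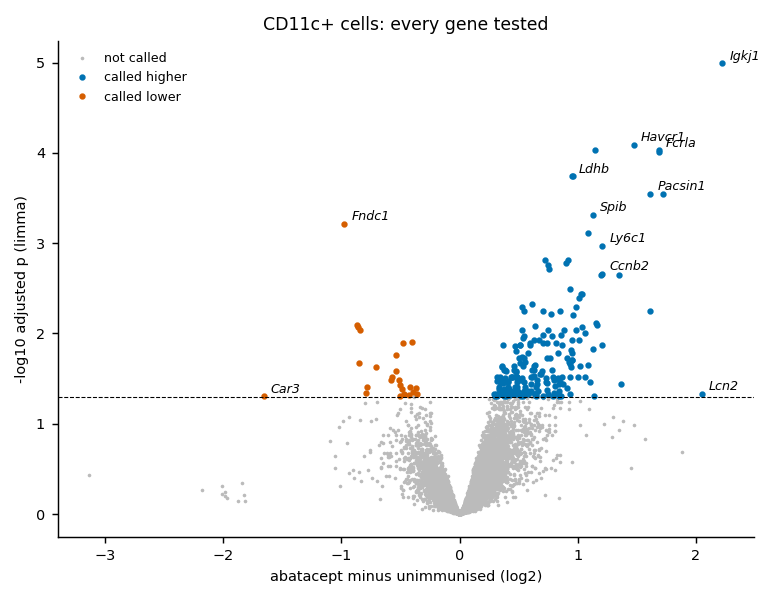
Each point is 1 of 10203 genes, with the abatacept minus unimmunised difference (log2) on the horizontal axis and -log10 of limma's adjusted p on the vertical axis; the dashed line marks an adjusted p of 0.05. The 214 genes called higher outnumber the 25 called lower, and Igkj1, with a difference of 2.22, stands highest.

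Genes of plasmacytoid dendritic cells, the type I interferon specialists among dendritic cells, had the largest share of called members among the lists with at least 7 tested genes. Of 14 listed genes 12 were tested, and 6 of these 12 were called higher than in unimmunised mice, against 2.10% of all genes. The listed genes Siglech and Runx2 were not matched to a gene with a single symbol and were not tested. All 12 differences were positive, with a median of 0.58 against 0.07 over all genes tested. The list's median difference was 1.46 for control IgG and 1.28 for primed mice, each minus unimmunised, so the abatacept group lay between. In bulk RNA, fewer cells of a type and less RNA per cell cannot be told apart.

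Pacsin1, a membrane-bending protein that is abundant in plasmacytoid dendritic cells, was at 4.53, 3.92 and 3.78 in unimmunised arrays and at 5.65, 5.76 and 5.66 under abatacept. The groups did not overlap, and the difference was 1.61 ± 0.17 (SE, adjusted p = 0.000286 by limma), with an unimmunised mean below the array medians, where the fold is not exact. Control IgG arrays were higher still, at 6.46, 6.33 and 6.28. Spib, a transcription factor of the ETS family needed in this lineage, read 6.83, 7.04 and 7.15 in unimmunised and 8.09, 8.23 and 8.07 in abatacept arrays, a difference of 1.13 ± 0.12 (SE, adjusted p = 0.000487 by limma). Each abatacept array exceeded each unimmunised array, and each control IgG array, at 8.79, 8.71 and 8.76, exceeded all of them.

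Ccr9, a chemokine receptor of gut-homing and immature plasmacytoid cells, was at 6.12, 6.46 and 6.21 in unimmunised and 6.88, 7.08 and 7.15 in abatacept arrays, and the difference was 0.77 ± 0.12 (SE, adjusted p = 0.00611 by limma). Upb1, an enzyme of pyrimidine breakdown, was at 5.02, 5.58 and 4.93 against 6.08, 6.10 and 6.30, a difference of 0.98 ± 0.15 (SE, adjusted p = 0.00508 by limma). Both genes were separated between the groups on all arrays. Pacsin1, Spib, Ccr9 and Upb1 stayed called without any single array and with both arrays that held salivary transcripts left out.

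Tcf4, which encodes the E2-2 factor that sets plasmacytoid identity, was called with a smaller difference of 0.46 ± 0.09 (SE, adjusted p = 0.0231 by limma), from 7.99, 8.30 and 8.09 to 8.49, 8.58 and 8.71. Its call was lost without abatacept replicate 2 or 3 or unimmunised replicate 1. Atp1b1, a sodium pump subunit, differed by 0.64 (adjusted p = 0.0467 by limma), and that call was lost without any of 5 arrays. Not called were Smim5 (0.67), Cox6a2 (0.52), Cd209d (0.28), Blnk (0.23), Ly6d (0.15) and Klk1 (0.01). The count of called members was 4 to 6 under every alternative tried, and 5 with both arrays with salivary transcripts left out.

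The rise was smaller than in primed mice given control IgG. In abatacept minus control IgG, 8 of the 12 plasmacytoid genes were called lower, against 8.86% of all genes, with a median of -0.61. Ccr9 was lower by 0.96 (adjusted p = 0.000824 by limma), Spib by 0.62 (adjusted p = 0.00661) and Tcf4 by 0.50 (adjusted p = 0.0045), and these calls held without any single array. Cd209d and Ly6d, which were not called against unimmunised mice, were lower than under control IgG by 1.34 (adjusted p = 0.00107) and 1.20 (adjusted p = 0.00182). The count fell to 5 without abatacept replicate 1 or control IgG replicate 1 and stood at 6 to 8 without each other array. With the arrays with salivary transcripts left out together, which leaves 1 control IgG array, the list's median was -0.65.

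**Figure D2:**
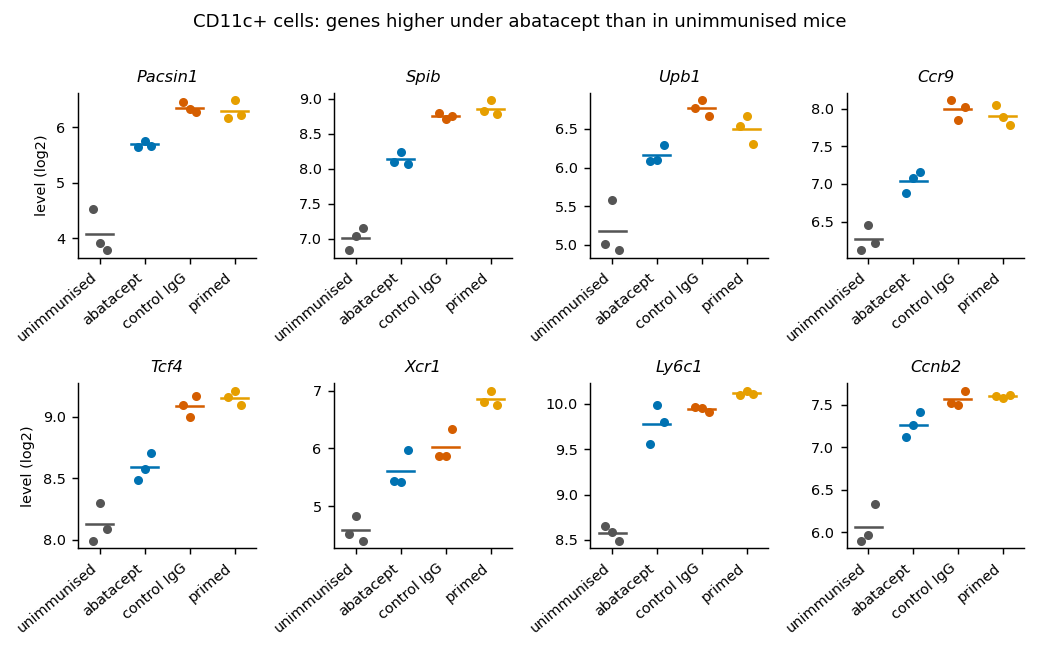
Level (log2) of 8 genes on each array of 4 groups of CD11c+ cells; points are arrays (replicates 1 to 3 from left) and lines are group means. In each panel the 3 abatacept arrays lie above the 3 unimmunised arrays, and for Spib they lie below all control IgG and primed arrays, while for Ly6c1 and Xcr1 the abatacept and control IgG arrays overlap.

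Of 13 tested genes of XCR1-type conventional dendritic cells, which cross-present antigen to CD8+ T cells, Xcr1 and Cd8a were called higher. The list's median difference was 0.25, and over all genes 2.10% were called higher. Xcr1, the chemokine receptor that names these cells, was at 4.51, 4.82 and 4.39 in unimmunised and 5.44, 5.41 and 5.98 in abatacept arrays, a difference of 1.03 ± 0.17 (SE, adjusted p = 0.00841 by limma). Cd8a went from 7.29, 7.33 and 7.71 to 8.29, 8.19 and 8.50, a difference of 0.89 ± 0.15 (SE, adjusted p = 0.00912). Neither gene overlapped between the groups, and the call of Xcr1 held without any single array and without both arrays with salivary transcripts, while that of Cd8a was lost in the latter case (adjusted p = 0.133).

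The other 11 tested members did not pass, among them Irf8 and Batf3, transcription factors of this lineage, with differences of 0.25 and 0.09, and Itgae with 0.04. At an unadjusted p under 0.05, 6 of the 13 were higher and 1 was lower, against 1852 of all 10203 genes in either direction. Of the 13 differences 10 were positive, and they ran from -0.37 to 1.03. Against control IgG, Cd8a was lower by 1.03 (adjusted p = 0.00154 by limma) and Xcr1 by 0.41 without passing (adjusted p = 0.12). Over the list, 6 of 13 were lower than under control IgG, against 8.86% of all genes, a count of 3 with the arrays with salivary transcripts left out, 3 without abatacept replicate 2, 4 without control IgG replicate 1 and 2 without control IgG replicate 3. Of 11 tested genes of CD11b-type conventional dendritic cells none was called between abatacept and unimmunised mice by limma, where 2.34% of all genes were. At an unadjusted p under 0.05, 1 was higher and 1 lower, against 1852 of all 10203 genes in either direction. The median was -0.01.

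Among cell cycle genes 7 of 34 tested members were called higher than in unimmunised mice, against 2.10% of all genes, and none lower, and the median difference was 0.56 against 0.07 over all genes. The 7 were Ccnb2, Cdk1, Kif11, Cenpe, Top2a, Birc5 and Bub1b, which act in mitosis. The same list had a median of 0.82 in control IgG and 0.97 in primed mice, each minus unimmunised, with 23 and 25 members called higher, against 23.9% and 25.5% of all genes. The count of 23 under control IgG became 2 with the arrays with salivary transcripts left out, where 1 control IgG array remained and was assumed to vary like the other groups. In abatacept minus control IgG 1 of the 34 was called lower, against 8.86% of all genes, and none higher, against 6.43%. It was Tyms, thymidylate synthase, lower by 0.54 (adjusted p = 0.0327 by limma). That call was lost without abatacept replicate 1 or 3 or control IgG replicate 1 or 3.

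Ccnb2, the cyclin B2 partner of CDK1, was at 5.90, 5.97 and 6.33 in unimmunised arrays, at 7.13, 7.26 and 7.42 under abatacept and at 7.53, 7.50 and 7.67 under control IgG. Its difference from unimmunised mice was 1.20 ± 0.16 (SE, adjusted p = 0.00219 by limma), and it stayed called without any single array. With both arrays that held salivary transcripts left out its adjusted p was 0.0646. Cdk1 itself, the kinase that drives entry into mitosis, was at 5.66, 6.03 and 6.06 in unimmunised and 6.64, 6.61 and 7.11 in abatacept arrays (0.87 ± 0.19 SE, adjusted p = 0.0367). The call of Cdk1 was lost without any array but unimmunised replicate 3.

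Kif11, a kinesin motor of the spindle, went from 6.10, 5.96 and 6.45 to 6.78, 7.13 and 7.20 (0.87 ± 0.18 SE, adjusted p = 0.0302 by limma), and Top2a, which untangles DNA, from 6.23, 5.97 and 6.10 to 6.60, 6.96 and 7.25 (0.84, adjusted p = 0.0488). Abatacept replicate 1 was the lowest abatacept array for both genes. The call of Kif11 was lost without abatacept replicate 2 or 3 or unimmunised replicate 1 or 2, and also with the mean of all probe sets. That of Top2a was lost without any array but abatacept replicate 1. The count of 7 was not stable: it was 1 without abatacept replicate 2 or 3 or unimmunised replicate 1 or 2, 5 without either of the other arrays, and 0 with both arrays with salivary transcripts left out, where the median difference was still 0.49. At an unadjusted p under 0.05, 21 of 34 members were higher and none lower, against 1852 of all 10203 genes in either direction.

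The differences were not spread evenly over the list. The replication helicase subunits Mcm2, Mcm3, Mcm4, Mcm5, Mcm6 and Mcm7 differed from unimmunised mice by 0.08, -0.01, 0.12, 0.05, 0.14 and -0.02, and Pcna, the sliding clamp of the replication fork, by 0.10. The kinases Aurka and Aurkb of mitosis differed by 0.66 and 0.56 and the checkpoint kinase Bub1 by 0.79, none of which passed the test. These genes were singled out after their values were seen.

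The stretches before the start of all 7 called genes are shown because mitotic genes are known to share CCAAT boxes, bound by the NF-Y factor, and a CHR element (TTTGAA), through which the DREAM complex holds them down in resting cells. Sequences are the 120 bases before the start from RefSeq (GRCm38.p6), 5' to 3' on the gene's strand, with CCAAT and TTTGAA, or their reverse complements ATTGG and TTCAAA, in capitals.
Ccnb2, chr9:70421555-70421674, strand minus: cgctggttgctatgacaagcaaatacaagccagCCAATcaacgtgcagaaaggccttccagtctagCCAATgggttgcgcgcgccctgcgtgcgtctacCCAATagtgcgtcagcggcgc
Kif11, chr19:37376262-37376381, strand plus: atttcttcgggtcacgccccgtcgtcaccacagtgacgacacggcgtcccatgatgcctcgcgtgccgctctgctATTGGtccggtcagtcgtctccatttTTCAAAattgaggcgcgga
Cdk1, chr10:69352913-69353032, strand minus: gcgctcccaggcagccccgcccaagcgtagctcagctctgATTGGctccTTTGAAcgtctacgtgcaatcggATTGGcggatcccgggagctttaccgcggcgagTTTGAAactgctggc
Top2a, chr11:99024190-99024309, strand minus: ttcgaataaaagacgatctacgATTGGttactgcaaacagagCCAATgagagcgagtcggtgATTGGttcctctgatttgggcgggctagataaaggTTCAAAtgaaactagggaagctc
Cenpe, chr3:135212443-135212562, strand plus: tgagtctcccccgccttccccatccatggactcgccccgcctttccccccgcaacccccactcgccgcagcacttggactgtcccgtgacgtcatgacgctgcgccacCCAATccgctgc
Bub1b, chr2:118598091-118598210, strand plus: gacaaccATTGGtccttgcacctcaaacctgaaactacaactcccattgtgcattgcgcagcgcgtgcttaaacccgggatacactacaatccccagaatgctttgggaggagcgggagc
Birc5, chr11:117849117-117849236, strand plus: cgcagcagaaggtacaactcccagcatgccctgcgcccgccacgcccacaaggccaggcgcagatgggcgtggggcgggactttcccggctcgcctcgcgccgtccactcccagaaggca

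In these stretches Cenpe and Bub1b held 1 CCAAT each and no TTTGAA, and Birc5 held neither. In the 250 bases before the start, on either strand, 6 of the 7 called cell cycle genes held CCAAT and 4 held TTTGAA. Of the 29 tested cell cycle genes with a promoter entry, 23 held CCAAT (79.3%) and 8 TTTGAA (27.6%). Over all 27025 genes with a promoter entry the shares were 37.5% and 18.3%, and over the 8299 tested genes with an entry 40.5% and 13.1%. Of the 5 called plasmacytoid genes with an entry 3 held CCAAT and 0 TTTGAA, and of 13 genes of mature dendritic cells 3 held each. A match describes the letters of this window and does not show that a factor was bound.

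Among monocyte genes, Ly6c1 and Lyz2 were called higher, 2 of 17 tested, against 2.10% of all genes, and the median was 0.18. Ly6c1, a surface protein of inflammatory monocytes and some T cells and plasmacytoid cells, was at 8.65, 8.58 and 8.49 in unimmunised and 9.56, 9.99 and 9.80 in abatacept arrays, a difference of 1.21 ± 0.15 (SE, adjusted p = 0.00107 by limma) that held without any single array. Control IgG arrays were at 9.97, 9.95 and 9.90, and the abatacept minus control IgG difference of -0.16 did not pass (adjusted p = 0.522). Lyz2, lysozyme, rose by 0.39 over unimmunised mice (adjusted p = 0.0345), a call lost without any of the 6 arrays or with both arrays with salivary transcripts left out, and stood 1.01 below control IgG (adjusted p = 0.000202).

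Ccr2, which brings monocytes out of the bone marrow, was at 8.11, 7.95 and 8.20 in unimmunised, 8.23, 8.38 and 8.80 in abatacept and 9.12, 8.99 and 9.34 in control IgG arrays. It did not pass against unimmunised mice (0.38, adjusted p = 0.168 by limma) and was lower than under control IgG by 0.68 (adjusted p = 0.00661). Fn1, fibronectin, had differences of 0.18 (adjusted p = 0.628) and -1.07 (adjusted p = 0.00294). Over the 17 monocyte genes, 4 were called lower than under control IgG and 2 higher, against 8.86% and 6.43% of all genes. The list's median in that comparison was -0.31, and its differences ran from -1.15 to 0.86.

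Neutrophil granule genes had the highest median difference of the lists with at least 7 tested members, 0.76. Of the 14 genes 1 was called higher, against 2.10% of all genes, namely Lcn2, an iron-binding granule protein. Lcn2 was at 6.37, 4.96 and 4.61 in unimmunised arrays and at 7.93, 6.69 and 7.46 under abatacept (2.05 ± 0.49 SE, adjusted p = 0.0466 by limma). Unimmunised replicate 1 was the highest of its group for Lcn2, Ltf (8.57, 6.88 and 7.04), Camp (9.21, 7.84 and 7.48) and S100a8 (10.10, 8.86 and 8.89). Without that array 7 of the 14 genes were called higher, and without any of the other 5 arrays none was. The list's median was 1.25 in control IgG and 2.40 in primed mice, each minus unimmunised. In abatacept minus control IgG only Il1r2, a decoy receptor for interleukin-1, was called among the 14 (-1.37, adjusted p = 0.00469). In that comparison 8.86% of all genes were called lower.

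Of 11 tested genes of activated T cells 3 were called higher, Gzmb, Tnfrsf9 and Cxcr3, against 2.10% of all genes, with a median of 0.49. Tnfrsf9 (4-1BB), a costimulatory receptor induced on activation, was at 6.13, 6.01 and 6.01 in unimmunised, 6.79, 7.15 and 7.30 in abatacept and 7.78, 7.59 and 8.01 in control IgG arrays. Its difference from unimmunised mice was 1.03 ± 0.15 (SE, adjusted p = 0.00362 by limma) and from control IgG -0.71 (adjusted p = 0.00727), and both calls held without any single array. Gzmb, the cytotoxic protease granzyme B, was at 5.35, 4.99 and 5.40 against 5.93, 6.69 and 7.23 (1.37 ± 0.30 SE, adjusted p = 0.0367) and at 8.16, 7.83 and 7.97 under control IgG. Its call against unimmunised mice was lost without abatacept replicate 2 or 3 or unimmunised replicate 1 or 2.

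Cxcr3, a chemokine receptor of effector lymphocytes and plasmacytoid cells, differed by 0.83 (adjusted p = 0.0165 by limma), lost without abatacept replicate 2 or 3. The count for the list was 1 without abatacept replicate 2 or 3 and 0 with both arrays with salivary transcripts left out. Il2ra, the interleukin-2 receptor alpha chain, was at 3.96, 4.06 and 4.28 in unimmunised, 4.67, 4.41 and 4.38 in abatacept and 6.28, 5.51 and 6.56 in control IgG arrays, and did not pass against unimmunised mice (0.39, adjusted p = 0.362). Of 11 tested T cell genes, 9 had positive differences, with a median of 0.11, and 1 was called higher, against 2.10% of all genes. It was Cd28, at 5.52, 5.44 and 5.85 in unimmunised and 6.32, 6.14 and 6.31 in abatacept arrays. Its difference was 0.66 (adjusted p = 0.0367 by limma), a call lost without any array but unimmunised replicate 3. The mean of 14 matched members overlapped between the groups, at 5.22 to 6.05 in unimmunised and 5.57 to 5.77 in abatacept arrays.

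Natural killer cell genes had a median of 0.42 with none of 13 called by limma, where 2.34% of all genes were. At an unadjusted p under 0.05, 8 were higher and 0 lower, against 1852 of all 10203 genes in either direction. The mean of 14 matched members was 6.99 to 7.43 in unimmunised and 7.35 to 7.71 in abatacept arrays. Without unimmunised replicate 3, 4 were called, and without abatacept replicate 1, 1 was. B cell genes were near background in every group, with a mean of 10 matched members of 4.13 to 4.25 in unimmunised and 4.03 to 4.25 in abatacept arrays and Pax5 and Ebf1 below the array median on all CD11c+ arrays. The part of T, natural killer and neutrophil transcripts in the differences of other genes was not tested.

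Among 18 tested immediate early genes, which respond within minutes to receptor signals and to cell handling, Egr1, Egr2 and Jun were called higher. These were 3 of 18, against 2.10% of all genes, and the list's median was 0.25. Egr1 was at 6.95, 7.34 and 7.47 in unimmunised and 8.04, 8.21 and 8.38 in abatacept arrays (0.96 ± 0.15 SE, adjusted p = 0.00627 by limma). Jun was at 8.03, 7.82 and 8.07 against 8.82, 8.74 and 8.92 (0.85 ± 0.13 SE, adjusted p = 0.00559). Both were separated on every array, stayed called without any single array, and lay 0.17 below (adjusted p = 0.48) and 0.08 above (adjusted p = 0.741) control IgG. With both arrays with salivary transcripts left out neither passed, with adjusted p of 0.0859 and 0.109.

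Egr2 was at 7.45, 7.52 and 7.46 in unimmunised, 8.12, 8.31 and 8.60 in abatacept and 9.25, 8.78 and 9.07 in control IgG arrays (0.86 ± 0.16 SE over unimmunised, adjusted p = 0.0133 by limma). The call was lost without abatacept replicate 2 or 3 or with both arrays with salivary transcripts left out. Fos, the partner of Jun in AP-1, had abatacept arrays at 7.55, 7.55 and 7.34 above unimmunised arrays at 6.71, 6.49 and 6.97 without passing (0.75, adjusted p = 0.104).

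Several of the largest rises lay outside the main dendritic cell lists. Igkj1, a joining segment of the immunoglobulin kappa locus, had the largest, from 5.41, 5.77 and 5.51 in unimmunised to 7.70, 7.98 and 7.67 in abatacept arrays (2.22 ± 0.15 SE, adjusted p = 1.02e-05 by limma). It remained below control IgG arrays at 8.83, 8.76 and 8.84 (-1.02, adjusted p = 0.00156). Its probe set has the suffix of a set that may match more than 1 transcript, and which transcript gave the signal was not tested.

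Fcrla, an intracellular Fc receptor-like protein, was at 4.74, 5.10 and 4.93 in unimmunised, 6.39, 6.76 and 6.67 in abatacept and 7.34, 7.18 and 7.45 in control IgG arrays, a difference of 1.68 ± 0.15 (SE, adjusted p = 9.32e-05 by limma) over unimmunised and of -0.72 (adjusted p = 0.00761) against control IgG. Havcr1, which encodes the phosphatidylserine receptor TIM-1, was at 6.76, 7.26 and 7.06 against 8.40, 8.60 and 8.50 (1.47 ± 0.12 SE, adjusted p = 8.13e-05), below control IgG at 9.06, 9.20 and 9.37 (-0.71, adjusted p = 0.00318). Ldhb, a lactate dehydrogenase subunit, was at 6.02, 5.93 and 6.04 against 7.05, 6.85 and 6.94 (0.95 ± 0.09 SE, adjusted p = 0.000181) and at 7.89, 7.71 and 7.94 under control IgG. In each of these genes the abatacept arrays lay between the unimmunised and the control IgG arrays with no overlap on either side, and all these calls held without any single array.

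Klk1b27 (1.68) and D13Ertd608e (1.72) were also among the largest rises that held without any single array and without both arrays with salivary transcripts. Klk1b27 belongs to the kallikrein family, whose members are closely alike, so its probe set may read more than 1 of them. Cdh5, an endothelial cadherin also found in some dendritic cells, rose by 1.61 (adjusted p = 0.00559 by limma), Mctp2, a calcium-binding membrane protein, by 1.35 (adjusted p = 0.00227) and Lifr, the receptor for leukaemia inhibitory factor, by 1.21 (adjusted p = 0.0133). The first pair lost the call with both arrays with salivary transcripts left out (adjusted p = 0.109 and 0.0657), and Lifr without abatacept replicate 2 or 3 as well. Of 5 tested stroma and endothelium genes Cdh5 was the only one called, where 2.10% of all genes were called higher.

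A pair of genes from the chemokine and checkpoint lists rose with less stability. Ccl3, an inflammatory chemokine, was at 5.77, 6.06 and 6.66 in unimmunised and 6.90, 7.41 and 7.42 in abatacept arrays (1.08 ± 0.21 SE, adjusted p = 0.0224 by limma), which did not pass without abatacept replicate 2 or 3 or unimmunised replicate 1 or 2, nor with both arrays with salivary transcripts left out. Cd200, a ligand that restrains myeloid cells, was at 5.30, 5.38 and 5.54 against 6.15, 6.21 and 6.10 (0.75, adjusted p = 0.0466), lost without any of the 6 arrays, and was below control IgG by 1.09 (adjusted p = 0.00253).

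Of the 25 genes that were lower under abatacept than in unimmunised mice, Car3 fell most. Car3, a carbonic anhydrase of fat and muscle, was at 9.61, 9.34 and 9.57 in unimmunised, 7.77, 8.23 and 7.55 in abatacept and 5.89, 7.32 and 5.39 in control IgG arrays. Its difference from unimmunised mice was -1.66 ± 0.40 (SE, adjusted p = 0.0494 by limma), a call lost without any of the 6 arrays. Fndc1, a fibronectin domain protein, was at 5.09, 5.10 and 4.77 in unimmunised, 4.05, 3.89 and 4.09 in abatacept and 3.08, 3.21 and 3.10 in control IgG arrays. It passed the filter on dim genes only through the unimmunised arrays, where it is high, and its difference of -0.98 is given as a description. The abatacept mean of Fndc1 was below the array medians, as were those of 11 of the 25 genes, so these folds are not exact.

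Slc30a4, a zinc transporter, was named because it was lower in both comparisons of the abatacept arrays. It was at 7.82, 7.79 and 8.30 in unimmunised, 7.18, 7.04 and 7.12 in abatacept, 7.81, 7.67 and 8.01 in control IgG and 7.81, 8.12 and 8.12 in primed arrays. The differences were -0.86 ± 0.14 (SE, adjusted p = 0.00841 by limma) against unimmunised and -0.71 (adjusted p = 0.00584) against control IgG, and both held without any single array. Atp6v0d2, a subunit of the lysosomal proton pump, was at 5.95, 5.96 and 5.63 against 4.80, 5.14 and 5.07 (-0.85 ± 0.14 SE, adjusted p = 0.00912), and control IgG arrays were at 4.85, 4.97 and 5.26. With both arrays with salivary transcripts left out neither fall passed (adjusted p = 0.0547 and 0.109).

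Mmp19, a matrix metalloproteinase, was at 5.69, 6.10 and 6.16 in unimmunised, 6.91, 6.96 and 6.93 in abatacept, 6.20, 6.70 and 6.09 in control IgG and 5.93, 6.14 and 6.20 in primed arrays. Its differences were 0.95 ± 0.17 (SE, adjusted p = 0.012 by limma) against unimmunised and 0.60 (adjusted p = 0.0269) against control IgG. Both comparisons share the abatacept arrays. The first call was lost without abatacept replicate 2, with the mean of all probe sets, or with both arrays with salivary transcripts left out (adjusted p = 0.104). The other was lost without any array but control IgG replicate 2.

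Genes of mature and migratory dendritic cells, which are induced when dendritic cells are activated and move to T cell zones, were not called between abatacept and unimmunised mice. None of 17 tested members passed in limma, where 2.34% of all genes did, so 0 calls alone say little about a list this short. Also none had an unadjusted p under 0.05, against 1852 of all 10203 genes, and none passed under any alternative tried. Their median difference was 0.05, and each of the 17 lay between -0.40 and 0.34. In control IgG minus unimmunised 14 of 17 were called higher, against 23.9% of all genes, with a median of 1.31. In primed minus unimmunised 13 were, against 25.5% of all genes, with a median of 1.12.

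Ccl22, a chemokine that draws CCR4+ T cells, was at 7.23, 6.36 and 7.05 in unimmunised and 7.01, 6.85 and 6.65 in abatacept arrays, so the groups overlapped (-0.04 ± 0.34 SE, adjusted p = 0.963 by limma). In control IgG arrays it was at 10.12, 9.11 and 10.41 and in primed arrays at 9.31, 9.53 and 10.12. Ccl17, its neighbour with the same receptor, was at 6.12, 5.74 and 6.04 against 5.98, 5.62 and 5.12 (-0.40 ± 0.40 SE, adjusted p = 0.635) and at 9.19, 7.78 and 9.47 under control IgG. In abatacept minus control IgG, Ccl22 differed by -3.05 (adjusted p = 0.000466 by limma) and Ccl17 by -3.24 (adjusted p = 0.000824). Both calls held without any single array. These groups also differed in Eif2s3y, and the part of that was not tested.

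Cd40, the receptor through which helper T cells license dendritic cells, was at 7.62, 7.73 and 8.00 in unimmunised, 7.83, 7.72 and 7.67 in abatacept and 9.82, 8.97 and 9.99 in control IgG arrays. Its difference was -0.04 ± 0.23 (SE, adjusted p = 0.942 by limma) from unimmunised and -1.86 (adjusted p = 0.00084) from control IgG mice. Fscn1, which bundles actin in dendrites, differed by 0.06 from unimmunised and -1.30 from control IgG (adjusted p = 0.00144), Il4i1, an amino acid oxidase, by -0.02 and -2.00 (adjusted p = 0.00136), and Relb, an NF-kappa-B subunit of mature dendritic cells, by 0.15 and -1.10 (adjusted p = 0.00283). Over the list 13 of 17 were lower than under control IgG, against 8.86% of all genes, between 11 and 15 without each array in turn, with a median of -1.10. Control IgG replicate 2, the array with an intermediate Eif2s3y level, was the lowest of its group for Ccl17, Ccl22, Cd40, Fscn1, Il4i1 and Relb.

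**Figure D3:**
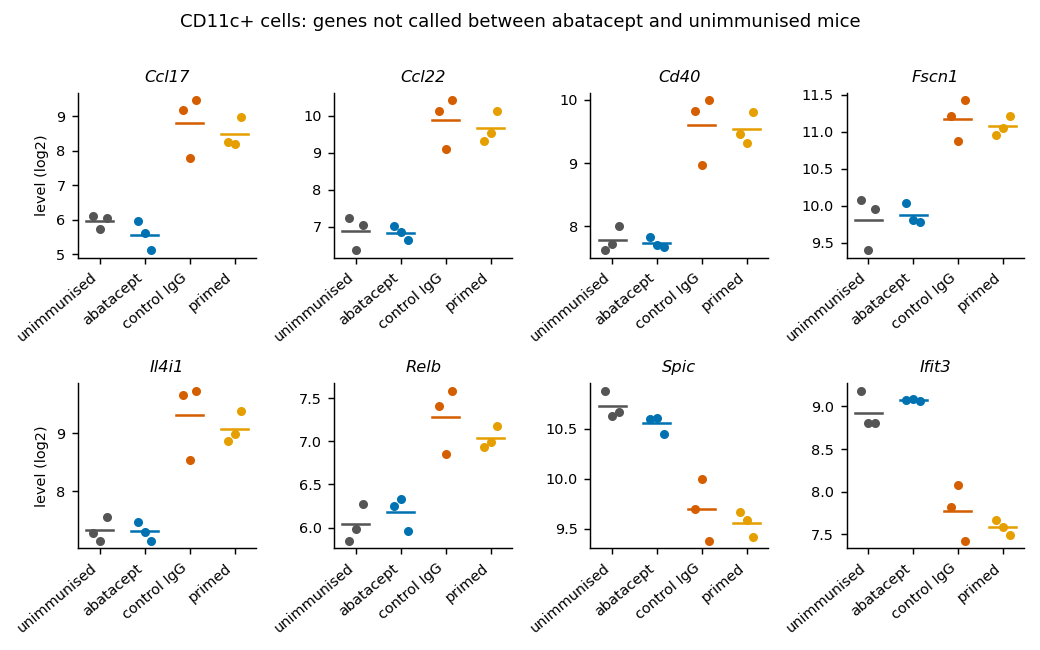
Level (log2) of 8 genes on each array of 4 groups of CD11c+ cells; points are arrays (replicates 1 to 3 from left) and lines are group means. For Ccl17, Ccl22, Cd40, Fscn1, Il4i1 and Relb the abatacept arrays overlap the unimmunised arrays and lie below all control IgG and primed arrays, while for Spic and Ifit3 they lie above all control IgG and primed arrays.

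MHC class II genes and their loading factors gave none of 12 called by limma between abatacept and unimmunised mice, against 2.34% of all genes. At an unadjusted p under 0.05, 2 were higher, against 1852 of all 10203 genes in either direction. The median was 0.07. Ciita, the class II transactivator, was at 6.33, 5.84 and 6.12 in unimmunised, 6.25, 6.48 and 6.76 in abatacept and 7.34, 6.91 and 7.26 in control IgG arrays, with differences of 0.40 ± 0.15 (SE, adjusted p = 0.198) and -0.68 (adjusted p = 0.0116), the latter lost without abatacept replicate 1 or control IgG replicate 1 or 3. In all, 9 of the 12 genes, against 8.86% of all genes, were lower than under control IgG, a count of 3 without abatacept replicate 1, 6 without abatacept replicate 2 and 2 without control IgG replicate 1 or 3, and 4 with the arrays with salivary transcripts left out. H2-Aa, a class II alpha chain, differed from unimmunised mice by -0.26 (adjusted p = 0.344).

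The targets of abatacept themselves did not pass. Cd80 was at 6.41, 6.45 and 6.17 in unimmunised and 6.10, 6.20 and 5.48 in abatacept arrays, which overlapped at the edge (-0.41 ± 0.21 SE, adjusted p = 0.313 by limma). Cd86 was at 9.50, 9.49 and 9.44 against 9.75, 9.72 and 9.58 with no overlap (0.21 ± 0.10 SE, adjusted p = 0.282). Against control IgG Cd86 was higher by 0.37 (adjusted p = 0.0208), which no longer passed without abatacept replicate 1 or 2 or control IgG replicate 1 or 3. Of 14 tested NF-kappa-B targets and inflammatory cytokines none was called against unimmunised mice by limma, where 2.34% of all genes were. At an unadjusted p under 0.05, 3 were higher, against 1852 of all 10203 genes in either direction. In control IgG minus unimmunised 10 of 14 were called higher, against 23.9% of all genes.

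Red pulp macrophage genes had the opposite direction after priming and were likewise not called under abatacept. None of 17 passed in limma against unimmunised mice, where 2.34% of all genes did. At an unadjusted p under 0.05, 1 was higher, against 1852 of all 10203 genes in either direction. The median was -0.02. Under control IgG 14 of 17 were called lower than in unimmunised mice, against 10.5% of all genes, with a median of -0.62, and this count was 6, 14 and 3 without control IgG replicate 1, 2 and 3 and 6, 7 and 8 without unimmunised replicate 1, 2 and 3. With the arrays with salivary transcripts left out it was 3. Spic, the transcription factor of iron-recycling macrophages, was at 10.88, 10.63 and 10.67 in unimmunised, 10.60, 10.61 and 10.45 in abatacept and 9.70, 10.00 and 9.38 in control IgG arrays. Its differences were -0.17 (adjusted p = 0.657) from unimmunised and 0.86 (adjusted p = 0.00894) from control IgG. In abatacept minus control IgG 8 of 17 were called higher, against 6.43% of all genes, with a median of 0.66. That count was 2, 3 and 5 without abatacept replicate 1, 2 and 3 and 3, 10 and 0 without control IgG replicate 1, 2 and 3, and 0 with the arrays with salivary transcripts left out.

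Type I interferon response genes gave none of 23 called in limma against unimmunised mice, where 2.34% of all genes were. At an unadjusted p under 0.05, 2 were higher and 0 lower, against 1852 of all 10203 genes in either direction. The median was 0.14. In control IgG minus unimmunised 12 of 23 were called lower and 1 higher, against 10.5% and 23.9% of all genes, with a median of -0.41. Without control IgG replicate 3, 7 were lower, and with the arrays with salivary transcripts left out 2 were. Ifit3, an interferon-induced antiviral protein, was at 9.18, 8.80 and 8.80 in unimmunised, 9.07, 9.09 and 9.06 in abatacept and 7.83, 8.08 and 7.42 in control IgG arrays, and the abatacept minus control IgG difference was 1.30 (adjusted p = 0.000624). In abatacept minus control IgG 6.43% of all genes were called higher. Over the list 12 of 23 were higher than under control IgG, 8 to 12 without each array in turn, and 2 with the arrays that held salivary transcripts left out together, where the median was 0.50 and the 1 control IgG array left was assumed to vary like the other groups.

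Most other lists had 0 or 1 called member, in a comparison that called 2.34% of all genes. Pattern recognition receptors had 3 of 20 called higher, against 2.10% of all genes. These were the Toll-like receptors Tlr1 and Tlr12 and the adaptor Ticam1, with differences of 0.55, 0.61 and 0.48. The count was 0 without any 1 abatacept array and 1 without any 1 unimmunised array. Of 14 cholesterol synthesis genes Sqle, squalene epoxidase, was called (0.54, adjusted p = 0.0231 by limma), a call lost without abatacept replicate 1 or 2 or unimmunised replicate 2 and with both arrays with salivary transcripts left out, while all 14 differences were positive and the median was 0.24. Of 25 genes of oxidative phosphorylation Cox5a was called, which was lost without any of the 6 arrays, with 24 positive differences and a median of 0.09, close to the 0.07 over all genes. Ribosomal proteins (0 of 19, median 0.07), glycolysis (0 of 14, median 0.16) and adhesion and migration genes (0 of 14, median 0.07) had no call in limma. At an unadjusted p under 0.05 they had 3, 4 and 2 members higher and 0, 0 and 1 lower. Of all 10203 genes 1852 passed that threshold in either direction.

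**Figure D4:**
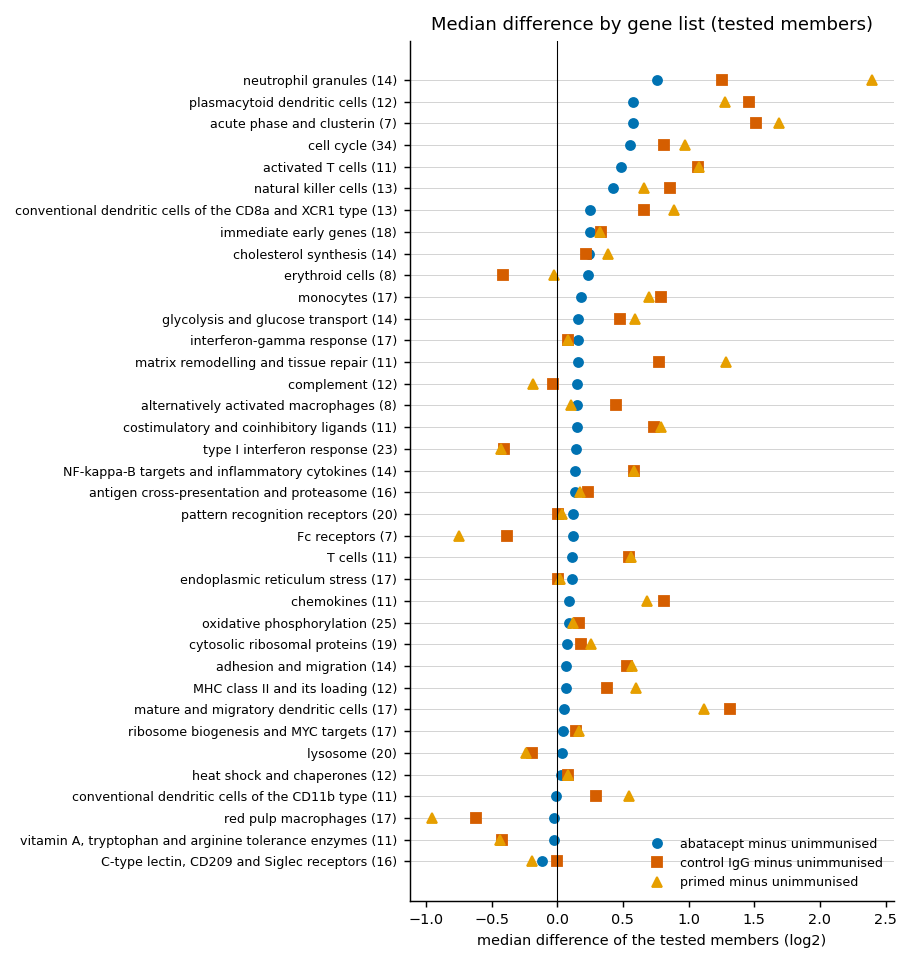
Median difference (log2) of the tested members of 37 gene lists with at least 7 tested members (number in brackets; the salivary gland list is left out), for abatacept, control IgG and primed mice, each minus unimmunised; all 3 share the unimmunised arrays. Plasmacytoid and cell cycle lists have abatacept medians of 0.58 and 0.56, while mature dendritic cell, class II and red pulp macrophage lists have medians of 0.05, 0.07 and -0.02.

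**Figure D5:**
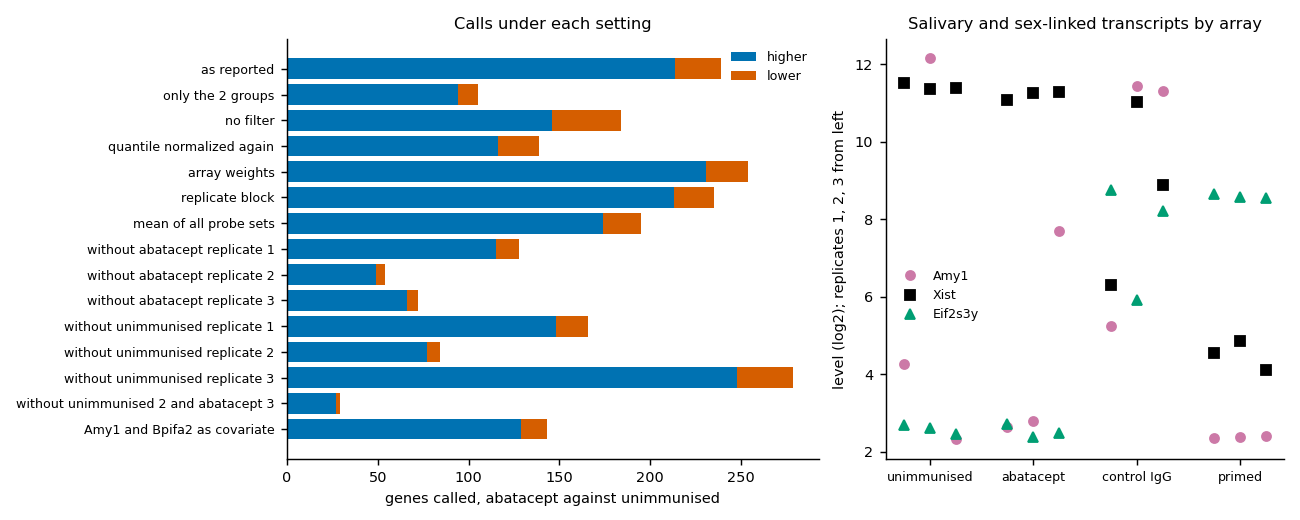
Left, genes called between abatacept and unimmunised mice, higher and lower, as reported (239) and under each alternative (29 to 279). Right, level (log2) of Amy1, Xist and Eif2s3y on each array of 4 groups; Amy1 stands out in unimmunised replicate 2, abatacept replicate 3 and control IgG replicates 2 and 3, and Xist and Eif2s3y match between unimmunised and abatacept arrays.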

How the data were processed

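Gene expression was measured on Affymetrix mouse whole-genome arrays from amplified, biotin-labelled RNA. The authors deposited log2 values normalised with RMA, per the submitters' processing notes, with the version not given in the sources used here. RMA forces arrays to like distributions, so a shift common to most genes would not be seen. Of 45118 probe sets, 28898 had 1 gene symbol, 551 several and 15669 none. Differences were tested with limma 3.58.1 (R 4.3.3), lmFit and eBayes over all 15 CD11c+ arrays in 5 groups with 10 residual degrees of freedom, two-sided, with Benjamini-Hochberg adjustment over the 10203 genes tested. Figures were drawn with matplotlib 3.10.9.

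The comparison and the 44 gene lists were chosen with earlier results of these data known, so lists are described by counts and medians only. Of 740 listed genes 645 were matched and 537 tested. Named by rule were the 12 largest rises and falls among called genes, at most 4 called members of each list, up to 6 genes in each direction called against both unimmunised and control IgG mice, and a fixed set of dendritic cell, costimulation, sex-linked and salivary genes. Other genes were named after their values were seen.

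On simulated data for the same comparison over 10203 genes, with 200 genes changed, 54%, 90%, 100% and 86% of changes of 0.5, 1, 2 and -1 (log2) were recovered, and 5.17% of 174 calls were false. The simulated noise was independent for each gene and array, without shifts shared by many genes of an array. These rates therefore do not cover the dependence of the real calls on single arrays. Alternatives covered the samples in the fit, the filter, renewed quantile normalisation, a block for the replicate number, array weights, the probe set rule, each array left out in turn, the arrays with salivary transcripts left out together, and salivary transcripts as a covariate. Promoter sequences are those of RefSeq (GRCm38.p6).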

Additional observations from a re-analysis of the deposited data

How the results depend on the processing

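The count of 239 genes was 105 with only the abatacept and unimmunised arrays in the fit, 139 after renewed quantile normalisation, 29 with both arrays with salivary transcripts left out and 143 with salivary transcripts as a covariate. Without each array in turn it was between 54 and 279. The 32 genes past 2-fold became 15 without the arrays with salivary transcripts and 21 to 44 without each array. The count of 239 was 184 without the filter, 254 with array weights and 195 with the mean of all probe sets. Abatacept against control IgG, with 1560 genes, gave 2696 with array weights, 495 without the arrays with salivary transcripts, 958 with the covariate and 525 to 1828 without each array, with 701 and 778 without abatacept replicates 1 and 2 and 714 and 525 without control IgG replicates 1 and 3. Control IgG against unimmunised, with 3509 genes, gave 1052 without the arrays with salivary transcripts, which leaves 1 control IgG array that is assumed to vary like the other groups, and 2213 to 3463 without each array, lowest without control IgG replicate 3. Abatacept against primed (2615) and primed against unimmunised (3941) stayed within 1.5 times under the alternatives run. Without each array in turn the difference of Amy1 ran from -3.84 to 1.08 and that of Bpifa2 from -3.64 to 1.03, both positive without unimmunised replicate 2 only. The cause of these shifts was not tested.

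With the replicate number as a block, 235 genes were called, 196 of them among the 239. Correlations of deviations between samples of the same number ran from -0.19 to 0.33, with 8 of 30 pairs over 0.1, so the numbers are not taken to pair the samples.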
